A study of Mus musculus with 12 samples.

Results

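The proliferation and mitosis genes described here are a set of 40 mouse genes that cycling cells switch on, 15 for DNA replication and 25 for mitosis, listed by symbol. They were read on 12 Affymetrix arrays, 3 per group, from freshly isolated adipose material of C57BL/6 mice. A progenitor preparation (AP) is the stromal-vascular fraction of enzymatically dissociated fat after depletion of blood cells (lineage markers) and endothelium (CD31) on magnetic beads. AP and unfractionated adipose tissue (AT) came from inguinal (subcutaneous, SAT) and perigonadal (visceral, VAT) fat. The groups were AP from SAT, AP from VAT, AT from SAT and AT from VAT, and all carried the same strain background with no named allele or treatment. AP was gathered from several mice. The titles call the 3 arrays of each group biological replicates, but the labels give neither sex and age nor which animals made up each. A p-value here therefore reflects variation among arrays, and how much of it is variation among animals is not known. AT holds adipocytes, progenitors, vessels and leukocytes together, and in such mixed RNA fewer cells of a type and less RNA per cell cannot be told apart. Of the 40 genes, 38 had a probe set of their own among the 22180 genes tested, 14 for replication and 24 for mitosis. Ccne2 (cyclin E2) lay on a probe set shared with another gene and Ccnb1 (cyclin B1) had none assigned to it alone, and neither was analysed here.

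A cell that commits to division first licenses its replication origins by loading the MCM helicase with the help of Cdc6 and Cdt1, then enters S phase through cyclin E and E2F transcription factors. Genes for replication are transcribed at the G1 to S boundary, largely through E2F sites. Genes for mitosis are transcribed later, in G2, through the B-Myb, MuvB and FoxM1 factors, which act at a promoter element called the cell cycle genes homology region (CHR), and in resting cells the DREAM complex holds both sets down. Many mitosis genes also carry CCAAT boxes near their start. In adipose tissue, progenitors are mostly quiescent in lean adults, mature adipocytes do not divide, and resident macrophages, other leukocytes and endothelial cells can contribute cycling cells.

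The promoters of the genes were compared first, because they show which of these elements the members share apart from their names. RefSeq promoter windows (GRCm38.p6, 250 bases before to 50 after the start of transcription) were matched by symbol for 33 of the 40 genes. Both strands were searched for TTTGAA (CHR), for CCAAT, and for the E2F letters TTCCCGC, as well as TTGGCGC and also TTCGCGC, where CCAAT on the complementary strand can share bases with TTGGCGC. Among the mitosis genes, TTTGAA was in 15 of 21 windows (71.4%), against 17.9% of all 32851 windows of the same length. CCAAT was in 18 of these 21 windows (85.7%), against 37.4% of all windows. The E2F letters were in 3 of them (14.3%), against 8.1%. Among the replication genes, E2F letters were in 8 of 14 windows (57.1%), CCAAT in 9 (64.3%) and TTTGAA in 1 (7.1%), that of Mcm2. CCAAT was thus above the 37.4% of all windows in both phases, while TTTGAA was above the 17.9% only among the mitosis genes. A letter match is a description of the window and not a measured binding site.

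The windows below belong to the called mitosis genes (Mki67, Top2a) and replication genes (Rrm1, Mcm7) with the largest difference between AP and AT over both depots. Plk1 and Ccnb2 were added after their values were seen, because they rose in visceral AP. Capitals mark the CHR, CCAAT and E2F letters on either strand, and each window reads 5′ to 3′ on the strand of its gene.
Mki67, chr7:135716330-135716629, minus strand: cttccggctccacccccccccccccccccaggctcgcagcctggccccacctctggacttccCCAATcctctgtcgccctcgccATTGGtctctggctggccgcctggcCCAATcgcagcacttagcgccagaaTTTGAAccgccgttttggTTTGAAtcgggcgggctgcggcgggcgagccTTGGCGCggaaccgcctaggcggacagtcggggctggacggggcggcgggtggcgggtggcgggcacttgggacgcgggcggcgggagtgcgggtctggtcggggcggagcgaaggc
Top2a, chr11:99024140-99024439, minus strand: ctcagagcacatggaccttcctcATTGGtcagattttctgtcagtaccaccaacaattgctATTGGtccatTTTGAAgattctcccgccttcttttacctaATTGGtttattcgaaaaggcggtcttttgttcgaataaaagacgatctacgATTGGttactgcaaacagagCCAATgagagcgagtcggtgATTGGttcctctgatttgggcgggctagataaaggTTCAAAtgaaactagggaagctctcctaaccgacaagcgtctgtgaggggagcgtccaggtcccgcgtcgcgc
Plk1, chr7:122159185-122159484, plus strand: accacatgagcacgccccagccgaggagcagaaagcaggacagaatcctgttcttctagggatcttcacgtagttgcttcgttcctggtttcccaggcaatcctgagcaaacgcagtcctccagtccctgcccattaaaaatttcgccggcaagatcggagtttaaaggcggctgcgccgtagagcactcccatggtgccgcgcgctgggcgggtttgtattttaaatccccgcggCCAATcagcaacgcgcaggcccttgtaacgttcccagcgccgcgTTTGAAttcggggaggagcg
Ccnb2, chr9:70421505-70421804, minus strand: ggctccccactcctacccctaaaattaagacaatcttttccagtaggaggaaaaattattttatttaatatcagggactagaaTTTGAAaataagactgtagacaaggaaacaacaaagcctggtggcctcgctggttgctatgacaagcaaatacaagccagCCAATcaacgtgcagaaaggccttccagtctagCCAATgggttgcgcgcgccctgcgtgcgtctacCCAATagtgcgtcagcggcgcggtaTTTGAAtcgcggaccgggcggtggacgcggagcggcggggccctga
Rrm1, chr7:102441445-102441744, plus strand: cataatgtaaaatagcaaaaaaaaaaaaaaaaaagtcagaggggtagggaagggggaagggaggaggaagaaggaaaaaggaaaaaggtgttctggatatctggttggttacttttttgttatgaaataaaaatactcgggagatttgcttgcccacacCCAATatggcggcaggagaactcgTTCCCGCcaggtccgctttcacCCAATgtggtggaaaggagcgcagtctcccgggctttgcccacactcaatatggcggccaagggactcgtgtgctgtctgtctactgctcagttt
Mcm7, chr5:138171834-138172133, minus strand, the first of its 2 windows: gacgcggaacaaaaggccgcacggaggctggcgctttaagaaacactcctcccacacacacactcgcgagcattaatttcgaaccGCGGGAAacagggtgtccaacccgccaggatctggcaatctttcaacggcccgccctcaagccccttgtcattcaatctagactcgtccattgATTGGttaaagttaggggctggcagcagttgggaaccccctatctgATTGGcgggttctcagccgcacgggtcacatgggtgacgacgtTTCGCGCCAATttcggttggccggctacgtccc
All 4 mitosis windows hold TTTGAA together with CCAAT, and neither replication window holds TTTGAA. In Plk1 the CHR letters lie 30 bases after the start and a CCAAT box 14 bases before it. Ccnb2 has 3 CCAAT boxes, at 87, 54 and 21 bases before the start, with TTTGAA at 4 bases after it and again 167 bases before it. Mki67 has TTTGAA 116 and 98 bases before the start and E2F letters 67 bases before it. Rrm1 has E2F letters 67 bases and CCAAT boxes 91 and 45 bases before its start. The CHR letters were about as frequent among mitosis genes that fell in subcutaneous AP as among those that did not pass the test: they were in 5 of the 7 genes with a window that were called lower there (71.4%) and in 9 of the 12 that were not called (75.0%).

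Progenitor markers were higher in AP and adipocyte markers lower, with markers of some other cell types also higher in AP. Progenitor markers (Pdgfra, Pdgfrb, Cd34 and others) averaged 10.0 to 10.9 on the log2 scale in AP, 8.14 to 9.40 in AT from SAT and at most 8.35 in AT from VAT. All 7 adipocyte markers, all 9 macrophage markers and 6 of 7 endothelial markers were called lower in AP in each depot, whereas the endothelial marker Tek was called higher (1.14 in SAT and 0.66 in VAT). Mast cell markers were also called higher in AP, 3 of 5 in SAT and 4 of 5 in VAT, and so were 3 and 5 of 6 pericyte and smooth muscle markers, with 1 of these 6 (Mcam) lower in each depot. The 10 immediate-early and heat-shock genes known to respond to tissue dissociation were all called higher in AP in each depot, with means of 10.7 to 10.9 in AP and 5.65 to 6.14 in AT. Array medians ran from 4.49 to 4.67. A log2 value of 4.10 (the 40th percentile over the probe sets of these arrays) served as a near-background level. All 14 replication genes and 15 of 24 mitosis genes lay above it in all 4 groups, while Bub1, Ttk and Birc5 lay below it in all 4. The mean of Cdk1, Melk, Top2a, Cenpe, Kif11 and Kif23 lay above it in some groups and below it in others.

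**Figure D1:**
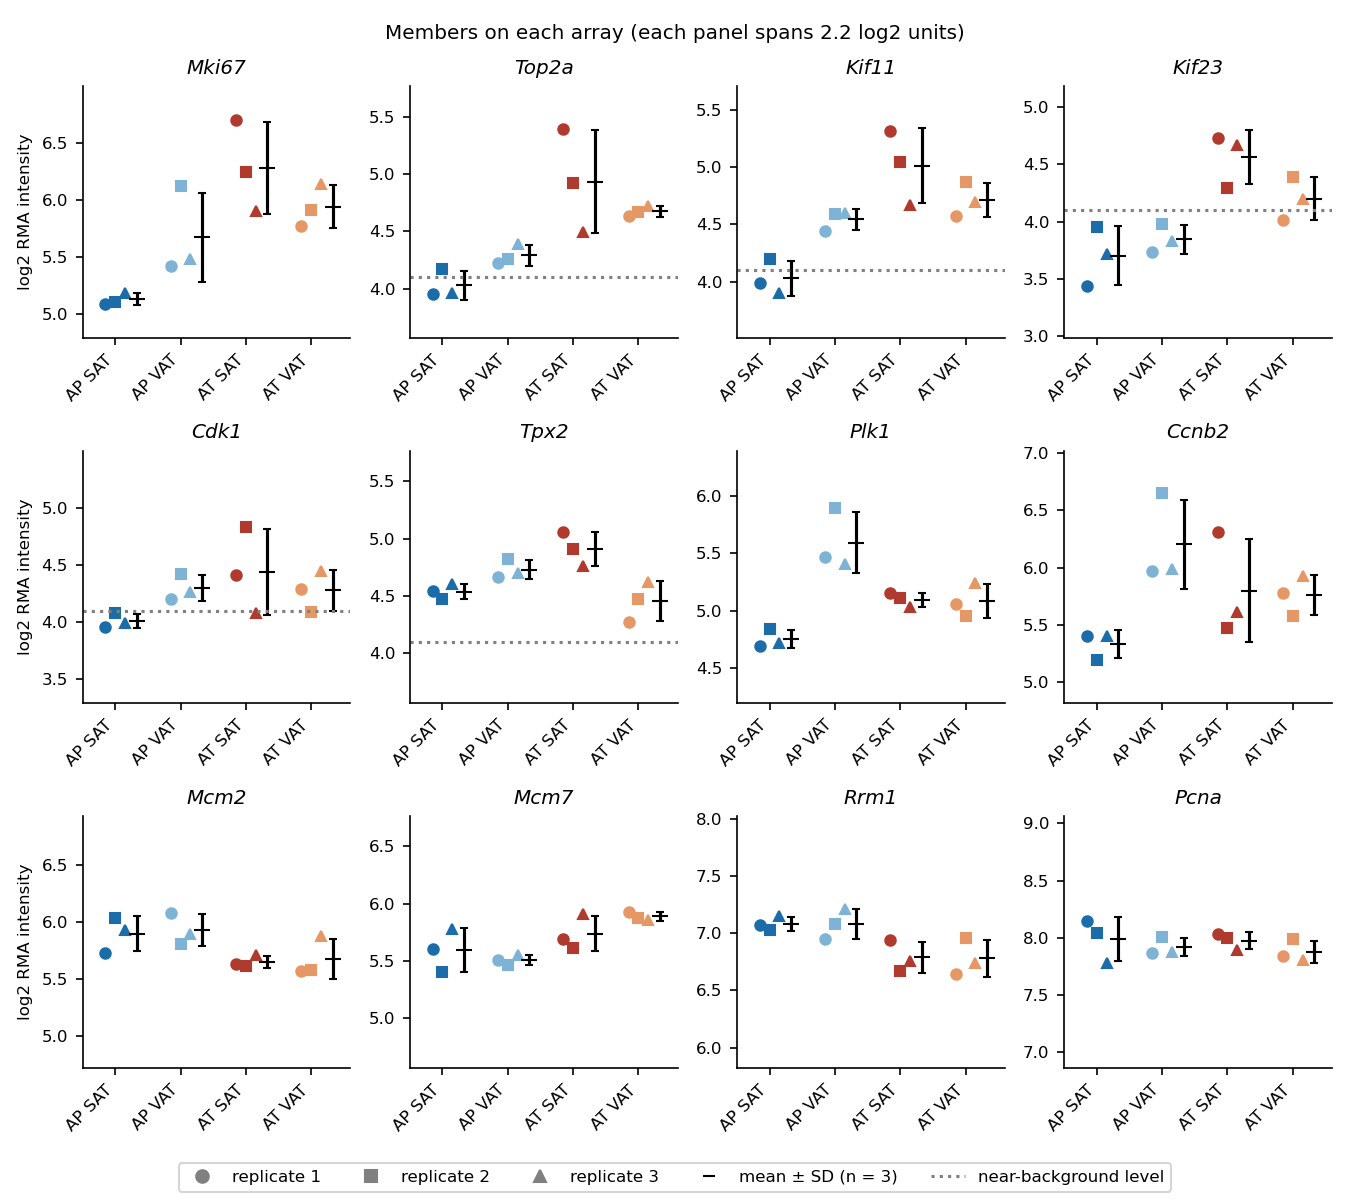
Log2 RMA values of 12 members, 1 panel per gene, with the group on the horizontal axis, 1 point per array and bars for the mean ± SD (n = 3); a dotted line marks the near-background level of 4.10. Mki67 on the 3 subcutaneous AP arrays sits between 5.09 and 5.19, under every other array, while Pcna covers 7.78 to 8.15 with all groups overlapping.

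In subcutaneous fat, 8 mitosis genes fell in AP relative to whole tissue, led by Mki67, Kif11, Top2a and Kif23, while no replication gene passed the test. All 24 mitosis genes had a log2 difference (AP minus AT) below 0, and the 8 (33.3%) were called lower at a limma adjusted p under 0.05, against 16.3% of all genes called lower. None was called higher, against 16.1% of all genes. The median difference was -0.29 for the mitosis genes and 0.03 over all genes, of which 9982 of 22180 were below 0. The 8 called genes were Mki67, Kif11, Top2a, Kif23, Cenpe, Cdk1, Tpx2 and Bub1, and 13 of the 24 had an unadjusted p under 0.05, as did 8755 of all 22180 genes. When every array was shifted to an equal level of 11 housekeeping genes, 21 of the 24 remained below 0 and 4 were called lower (Mki67, Top2a, Kif11 and Kif23). That shift moved the median of all genes from 0.03 to 0.13 and called 2670 of them lower and 3731 higher. The 11 housekeeping genes themselves differed between AP and AT, so the shift carries their own differences into the contrasts. In SAT 3 of them were called lower and 2 higher (median -0.17), and in VAT 6 lower and 1 higher (median -0.40).

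Mki67 encodes Ki-67, the coat protein of mitotic chromosomes used in histology to mark cycling cells. Its log2 values were 5.09, 5.11 and 5.19 in AP from SAT and 6.70, 6.24 and 5.90 in AT from SAT. Every tissue array was above every AP array. The difference was -1.15 (SE 0.197, adjusted p = 0.000241), or 2.22-fold lower in AP, with a 95% interval of -1.57 to -0.73. Top2a, the topoisomerase that untangles sister chromatids, read 3.95, 4.17 and 3.96 in AP and 5.39, 4.92 and 4.49 in AT from SAT. The groups did not overlap, and the difference was -0.91 (SE 0.167, adjusted p = 0.000459). The AP mean of Top2a (4.03) lay under the near-background level of 4.10, as did those of Kif11 (4.03), Kif23 (3.70), Cenpe (3.91), Cdk1 (4.01) and Bub1 (3.19), so no fold is given for these 6 of the 8 called genes and their differences are set against a signal near background.

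Of the motor proteins of the spindle and the midzone, Kif11, Kif23 and Cenpe fell and Kif20a did not pass the test. Kif11 (Eg5), which pushes spindle poles apart, read 3.99, 4.20 and 3.90 in AP and 5.32, 5.05 and 4.67 in AT from SAT. All AP arrays were lower, with a difference of -0.98 (SE 0.147, adjusted p = 7.01e-05). Kif23 (MKLP1), which bundles midzone microtubules for cytokinesis, read 3.44, 3.95 and 3.72 in AP and 4.73, 4.29 and 4.67 in AT. The groups were again apart, and the difference was -0.86 (SE 0.151, adjusted p = 0.000313). Tpx2, which activates Aurora A on spindle microtubules, read 4.54, 4.47 and 4.60 in AP and 5.06, 4.91 and 4.76 in AT, a difference of -0.37 (SE 0.114, adjusted p = 0.0192). The kinetochore motor gene Cenpe fell by 0.45 (SE 0.107, adjusted p = 0.00382). Of the 8 genes for kinetochore, spindle and midzone, these 4 were called; Cenpf, Kif20a, Nusap1 and Prc1 were not, with differences from -0.33 for Prc1, a midzone bundling protein, to -0.09 for Kif20a.

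Cdk1, the kinase that drives entry into mitosis, read 3.96, 4.08 and 3.99 in AP and 4.41, 4.83 and 4.08 in AT from SAT. The lowest tissue value equalled the highest AP value, and the difference was -0.43 (SE 0.156, adjusted p = 0.0466). Its cyclin partners Ccna2 and Ccnb2 differed by -0.43 and -0.47 and were not called (adjusted p = 0.112 and 0.106), and neither were Foxm1 (-0.24) and the kinase Melk (-0.25). Of the 5 genes of the spindle checkpoint and the anaphase-promoting complex, the checkpoint kinase Bub1 fell by 0.33 (SE 0.116, adjusted p = 0.0383), at values of 3.12 to 3.26 in AP and 3.32 to 3.66 in AT, under the background level. The other genes of that group, Bub1b, Ttk, Cdc20 and Ube2c, differed by -0.17 to -0.03 and were not called. None of Aurka, Aurkb, Plk1 and Birc5 was called, and Plk1 came closest at -0.35 (adjusted p = 0.0511).

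The smaller of these calls depended on single arrays. Mki67, Top2a, Kif11, Kif23 and Cenpe stayed called without any of the 12 arrays in turn, with Mki67 between -1.34 and -0.94. Cdk1 was lost without 9 of the 12 arrays, and the count of called mitosis genes was 5 without AP from SAT replicate 2 or without AT from SAT replicate 1. Markers of leukocytes and vessels differed between the same groups. The macrophage mean was 5.08 to 5.43 in AP and 8.37 to 9.30 in AT from SAT, the endothelial mean 5.59 to 5.77 and 7.78 to 7.98, and the T and NK cell mean 4.68 to 4.81 and 4.82 to 5.72, with 3 of 8 T and NK markers called lower. All macrophage and endothelial markers stayed above the background level in AP. Within AT from SAT, replicates 1, 2 and 3 had T and NK means of 5.72, 5.53 and 4.82 and mitosis means of 4.87, 4.70 and 4.58, while their macrophage means were 8.93, 8.37 and 9.30. Their B cell means were 4.76, 5.34 and 4.89, which did not follow the mitosis means, and 1 of 5 B cell markers was called lower in subcutaneous AP. The T and NK and mitosis means did not follow each other in AT from VAT, at 4.94, 5.46 and 4.83 beside 4.55, 4.54 and 4.65. Markers differed between AP and AT in VAT too, where the mitosis genes had a median difference of 0.01 as deposited. There the macrophage mean was 5.06 to 5.19 in AP and 8.62 to 8.72 in AT. The endothelial mean was 5.62 to 5.75 and 7.34 to 7.86. In VAT 2 of 8 T and NK markers and 4 of 5 B cell markers were called lower. The part of these cell types in the lower subcutaneous mitosis values was not tested.

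Of the replication genes in subcutaneous fat, 0 of 14 were called in either direction, against 16.1% of all genes called higher and 16.3% lower. The 14 genes had differences from -0.21 to 0.29 around a median of 0. Of these, 1 had an unadjusted p under 0.05, beside 8755 of all 22180 genes. It was Rrm1, for which the difference was 0.29 (adjusted p = 0.0654). Pcna, the sliding clamp of the replication fork, read 8.15, 8.04 and 7.78 in AP and 8.03, 8.0 and 7.89 in AT from SAT. The groups overlapped throughout, and the difference of 0.02 had a 95% interval of -0.22 to 0.25. A housekeeping shift brought 2 of the 14, Mcm4 and Rrm1, to a call of higher, beside 3731 of all 22180 genes.

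**Figure D2:**
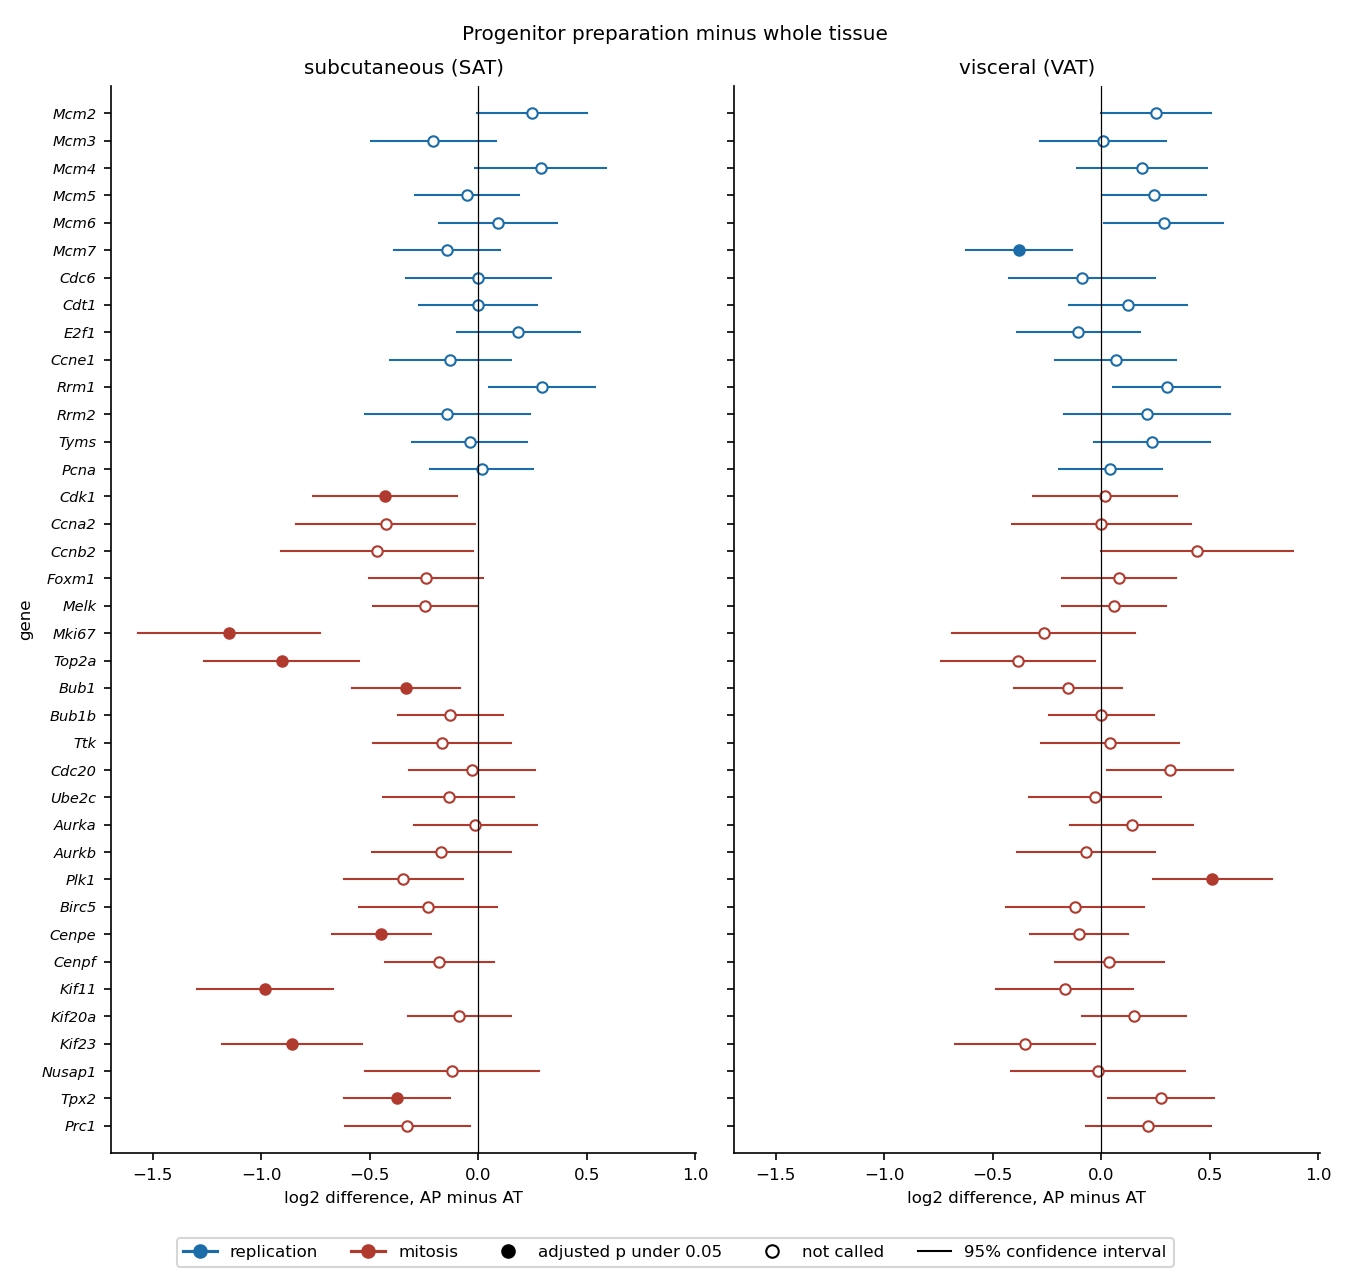
Log2 difference of AP minus AT for each of the 38 genes, in SAT and in VAT, with 95% confidence intervals, replication genes in blue and mitosis genes in red, and filled points for an adjusted p under 0.05. In SAT all red points lie left of 0, 8 of them filled, whereas in VAT, as deposited, they lie on both sides with Plk1 filled on the right.

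In visceral fat the mitosis genes lay on both sides of 0. Of the 24, 12 differences were above 0, 10 below and 2 at 0, with a median of 0.01 beside 0.03 over all genes. This split moved with the scaling: 8 were above 0 and 16 below after quantile normalization, and 23 above and 1 below under the housekeeping shift. Plk1 was called higher in AP and 0 were called lower, against 15.8% and 16.8% of all genes. Plk1 encodes Polo-like kinase 1, which acts in spindle assembly, chromosome segregation and cytokinesis. It read 5.47, 5.90 and 5.41 in AP from VAT and 5.06, 4.95 and 5.24 in AT from VAT. Every AP array was above every tissue array, and the difference was 0.51 (SE 0.129, adjusted p = 0.00594), 1.42-fold, remaining called without any of the 12 arrays in turn.

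The genes with the largest falls in subcutaneous AP had differences below 0 in visceral fat too as deposited, without passing the test. Under the housekeeping shift Mki67 (0.10), Kif11 (0.20) and Kif23 (0.02) turned above 0, while Top2a stayed just below it (-0.01). Mki67 read 5.42, 6.12 and 5.48 in AP from VAT and 5.77, 5.91 and 6.14 in AT from VAT, so that AP replicate 2 fell among the tissue values. Its difference of -0.27 had an interval of -0.69 to 0.15. Top2a read 4.22, 4.26 and 4.39 against 4.63, 4.67 and 4.72, and the difference was -0.38 (adjusted p = 0.0945). Kif11 read 4.44, 4.59 and 4.60 against 4.57, 4.87 and 4.70 (difference -0.17), and Kif23 read 3.73, 3.98 and 3.83 against 4.01, 4.39 and 4.20 (difference -0.35, adjusted p = 0.0899). Cdk1 read 4.20, 4.42 and 4.26 against 4.29, 4.09 and 4.45, a difference of 0.02. Ccnb2 and Tpx2 had differences above 0, 0.44 (adjusted p = 0.123) and 0.27 (adjusted p = 0.0824), as did Cdc20, the activator of the anaphase-promoting complex, at 0.32 (adjusted p = 0.0903).

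Among the 14 replication genes in visceral fat, Mcm7, a subunit of the MCM helicase, was the called gene. That was 7.14% called lower and 0 called higher, against 16.8% and 15.8% of all genes. It read 5.51, 5.46 and 5.55 in AP and 5.93, 5.87 and 5.86 in AT from VAT. The groups were apart and tightly grouped, and the difference was -0.38 (SE 0.114, adjusted p = 0.0176). The other 5 MCM subunits had differences of 0.01 to 0.29 and were not called. Of the 14 replication genes, 11 differences were above 0, with a median of 0.16. This contrast was the most sensitive to scaling: the housekeeping shift moved the median of all genes from 0.03 to 0.40, brought all-gene calls to 11917 higher and 1736 lower from 3507 and 3732, and gave calls of higher for 10 replication and 10 mitosis genes, while Mcm7 went to -0.01 (adjusted p = 0.954). The Mcm7 call was also lost without AP from VAT replicate 2 or AT from VAT replicate 1.

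Averaged over both depots, 6 of 24 mitosis genes were called lower in AP and 0 higher, against 20.5% and 22.0% of all genes, so the share called lower was close to that of all genes. The 6 were Mki67 (-0.71), Top2a (-0.65), Kif23 (-0.61), Kif11 (-0.58), Cenpe (-0.28) and Bub1 (-0.24). The Bub1 call was lost without any of 7 arrays. Under the housekeeping shift Bub1 went to -0.01 (adjusted p = 0.955) and Cenpe to -0.04 (adjusted p = 0.749), while Cdc20 (0.38, adjusted p = 0.0135) and Plk1 (0.32, adjusted p = 0.0397) were called higher. Of the 14 replication genes, 2 were called higher (14.3%) and 1 lower (7.14%), against 22.0% and 20.5% of all genes. Rrm1, the large subunit of ribonucleotide reductase, read 7.07, 7.03 and 7.15 in AP from SAT and 6.95, 7.08 and 7.21 in AP from VAT. In AT it read 6.94, 6.67 and 6.76 in SAT and 6.64, 6.96 and 6.74 in VAT, and the difference over both depots was 0.30 (SE 0.0813, adjusted p = 0.00757). Taken by depot, its differences were 0.29 in SAT (adjusted p = 0.0654) and 0.30 in VAT (adjusted p = 0.0587). Mcm2 read 5.73, 6.03 and 5.93 in AP from SAT and 6.08, 5.81 and 5.89 in AP from VAT, against 5.63, 5.61 and 5.71 in AT from SAT and 5.57, 5.58 and 5.88 in AT from VAT. It was 0.25 higher in AP (SE 0.0841, adjusted p = 0.0262), a call that was lost without any of 7 arrays. Mcm7, at 5.60, 5.40 and 5.78 in AP from SAT and 5.69, 5.61 and 5.91 in AT from SAT, was lower by the mean over both depots (-0.26, SE 0.0806, adjusted p = 0.0156). Under the housekeeping shift, which moved the median of all genes to 0.27, 8 of 14 replication genes were called higher, beside 11309 of all 22180 genes. The Mcm7 call was gone under that shift. Mcm2, Mcm3, Mcm4, Mcm5, Mcm6 and Mcm7 encode the subunits of a single hexamer. Of these, as deposited, Mcm2 was called higher and Mcm7 lower over both depots, and the others were not called.

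Between the depots, Ccnb2 and Plk1 rose in visceral AP relative to subcutaneous AP. In AP, 22 of 24 differences (VAT minus SAT) were above 0 with a median of 0.22, beside 0 over all genes, and 23 were above 0 after the housekeeping shift, which moved that median of all genes to 0.13. The 2 genes were the calls of higher (8.33%) with 0 lower, against 3.03% and 2.60% of all genes. Plk1 read 4.69, 4.84 and 4.72 in AP from SAT and 5.47, 5.90 and 5.41 in AP from VAT. Every visceral array was above every subcutaneous array, and the difference was 0.84 (SE 0.129, adjusted p = 0.000574), 1.79-fold. Ccnb2 (cyclin B2), a partner of Cdk1 in mitosis, read 5.40, 5.19 and 5.40 in AP from SAT and 5.97, 6.65 and 5.99 in AP from VAT. The depots were again apart, with a difference of 0.87 (SE 0.207, adjusted p = 0.0189), 1.83-fold. Plk1 stayed called without each array in turn (0.69 to 0.94), and Ccnb2 was lost without AP from SAT replicate 1 or 2 or AP from VAT replicate 2. These arrays of AP from SAT also entered the comparison with tissue above. Kif11 (0.51, adjusted p = 0.0570) and Mki67 (0.54, adjusted p = 0.154) were not called. No replication gene was called in AP between depots. The differences ran from -0.30 for E2f1 to 0.27 for Mcm5. Of them, 2 had an unadjusted p under 0.05, as did 3411 of all 22180 genes.

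Visceral AP also differed from subcutaneous AP in its markers. All 6 mesothelial markers (Msln, Upk3b and others) were called higher in VAT, with means of 5.18 to 5.47 in AP from SAT and 8.39 to 8.93 in AP from VAT. They were likewise higher in AT from VAT, at 7.98 to 8.27 against 4.92 to 5.28 in AT from SAT, where Plk1 read 5.06, 4.95 and 5.24 against 5.15, 5.11 and 5.03. Of 5 epithelial markers, 2 were called higher in visceral AP, and of 5 mast cell markers 3 were called lower. Of 5 progenitor markers 2 were called lower (Dpp4 at -1.35 and Pi16 at -1.61), with means of 10.8 to 10.9 in AP from SAT and 10.0 to 10.3 in AP from VAT. Of 7 endothelial markers Kdr (1.37) and Emcn (0.81) were called higher and Tek (-1.13) lower, and 1 of 6 pericyte and 1 of 7 adipocyte markers were called higher. The macrophage means overlapped, at 5.08 to 5.43 and 5.06 to 5.19, with 0 of 9 called. The dissociation means overlapped as well, at 10.8 to 10.9 and 10.7 to 10.9, with 2 of 10 called lower (Hspa1a and Hspa1b). The part of any of these markers' cells in the Plk1 and Ccnb2 differences was not tested.

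In whole tissue most mitosis differences between the depots had the opposite sign. Of the 24 (VAT minus SAT), 20 were below 0 with a median of -0.15, while 15 were below 0 after quantile normalization and 23 after the housekeeping shift, which moved the median of all genes from 0.00 to -0.14. Tpx2 was called lower in VAT and 0 genes were called higher, against 1.75% and 2.80% of all genes. Tpx2 read 5.06, 4.91 and 4.76 in AT from SAT and 4.27, 4.47 and 4.62 in AT from VAT, a difference of -0.46 (SE 0.114, adjusted p = 0.0314) with no overlap. In AP its values were 4.54, 4.47 and 4.60 in SAT and 4.66, 4.82 and 4.70 in VAT (difference 0.19, not called). The tissue call was lost without AT from SAT replicate 1 or 2 and without AT from VAT replicate 1 or 2, and after quantile normalization (adjusted p = 0.0566). No replication gene was called in AT between depots, and 0 of the 14 had an unadjusted p under 0.05, beside 3501 of all 22180 genes.

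**Figure D3:**
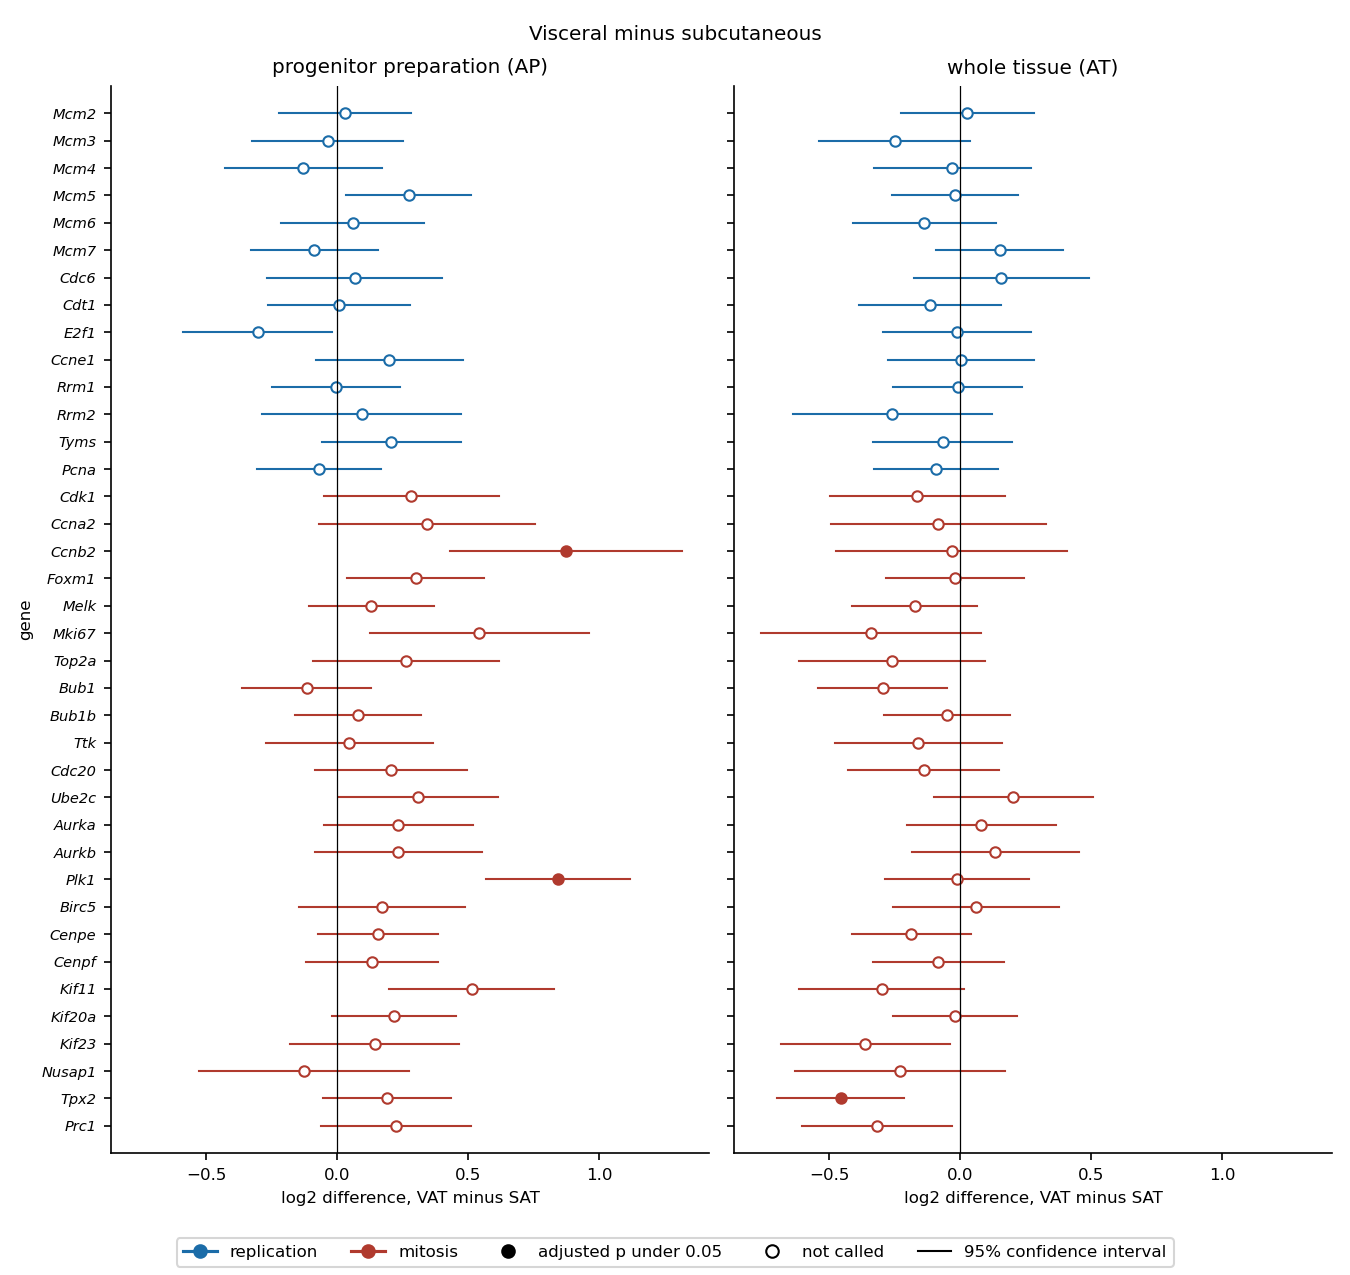
Log2 difference of VAT minus SAT for each of the 38 genes, in AP and in AT, with 95% confidence intervals, replication genes in blue and mitosis genes in red, and filled points for an adjusted p under 0.05. Ccnb2 at 0.87 and Plk1 at 0.84 stand apart on the right in AP, and Tpx2 at -0.46 is the filled point in AT.

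Whether the depot difference was larger in AP than in AT was asked by the interaction, which subtracts the tissue's depot difference from that of AP and uses the same 12 arrays as the contrasts above. All 24 mitosis genes had an interaction above 0, with a median of 0.33, beside -0.00 over all genes, and all 24 were also above 0 after quantile normalization and after the housekeeping shift. Leaving out AP from VAT replicate 2 or AT from SAT replicate 1 left 22 above 0, the lowest count among the fits without 1 array. The test across genes called Plk1 higher and 0 lower (4.17% of the 24), against 0.987% and 1.16% of all genes. An unadjusted p under 0.05 was found for 9 of the 24 and for 2968 of all 22180 genes. For Plk1 the interaction was 0.86 (SE 0.182, adjusted p = 0.0226), with an interval of 0.47 to 1.24. Tpx2 (0.65, adjusted p = 0.0523), Kif11 (0.81, adjusted p = 0.0585), Mki67 (0.88, adjusted p = 0.137) and Ccnb2 (0.91, adjusted p = 0.153) followed without a call. The Plk1 call was lost without AP from SAT replicate 1 or 3, AT from SAT replicate 1, or AT from VAT replicate 1 or 2, with the interaction between 0.70 and 0.95 over all such fits. Without AT from SAT replicate 3, the calls were Plk1, Mki67, Top2a, Kif11 and Tpx2. Of the replication genes 0 were called and 0 had an unadjusted p under 0.05, with interactions from -0.29 to 0.35.

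Within the groups, the deviations of the mitosis genes from their group means had a shared part. After each gene's group mean was removed, pairs of mitosis genes correlated over the 12 arrays with a mean r of 0.28, against -0.01 for pairs of replication genes and 0.00 for all genes. The arrays shared between genes make this a description, with no test. In AP from VAT, replicate 2 had the highest value of its 3 arrays for 18 of 24 mitosis genes. In AT from SAT replicate 1 was highest for 17, and in AT from VAT replicate 3 was highest for 17. Without AP from VAT replicate 2 the mean r was 0.17, and without that array and AT from SAT replicate 1 it was 0.14. The median SD within groups was 0.183 for mitosis genes, 0.158 for replication genes and 0.156 for all genes.

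Averaged per array, the 24 mitosis genes lay at 4.32 to 4.37 in AP from SAT, 4.52 to 4.76 in AP from VAT, 4.58 to 4.87 in AT from SAT and 4.54 to 4.65 in AT from VAT. As deposited, AP from SAT was thus the lowest group, with no overlap with any other, and the other 3 groups overlapped. The 14 replication genes lay at 5.82 to 5.86, 5.80 to 5.92, 5.79 to 5.85 and 5.72 to 5.81 in the same order, where AP from SAT overlapped with AP from VAT and AT from SAT. These means were not recomputed under the housekeeping shift. The shift moved the median of all genes from 0.03 to 0.13 for AP minus AT in SAT. For VAT minus SAT in AT it moved from 0.00 to -0.14. Both moves bring AP from SAT and AT from VAT closer together, and whether their mitosis means stay apart was not tested.

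**Figure D4:**
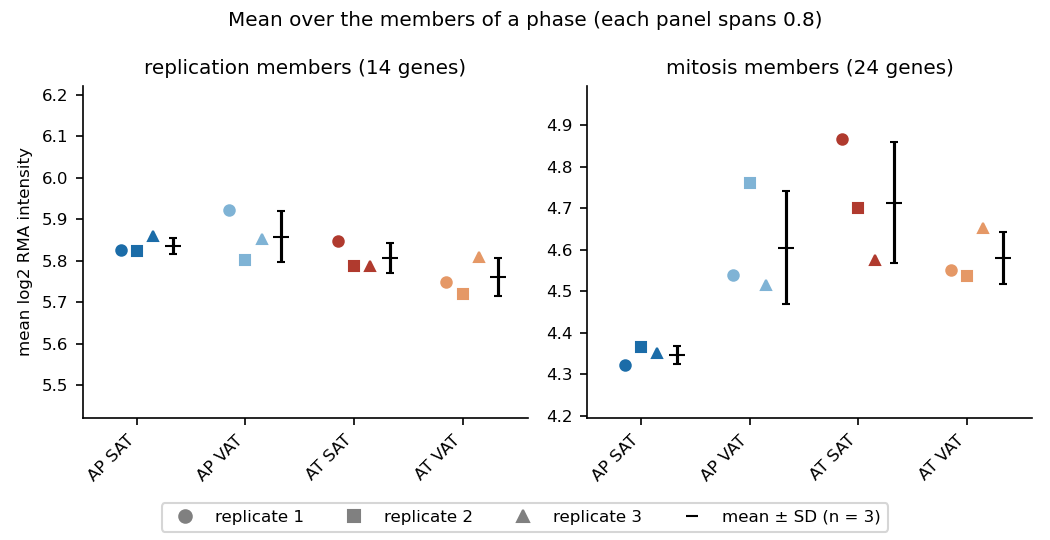
Mean log2 value per array over the 14 replication genes and over the 24 mitosis genes, by group, with 1 point per array and bars for the mean ± SD (n = 3). In the values as deposited, the mitosis means of AP from SAT (4.32 to 4.37) form a tight cluster under the other groups, while the replication means span 5.72 to 5.92 over all arrays.

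Genes of the same machinery outside the set were read from lists chosen by function, with earlier results of these data known. Of 47 further mitosis genes, 16 were called lower and 1 higher in AP in SAT, 5 lower and 1 higher in VAT, and 13 lower and 2 higher over both depots. The shares called lower were 34.0%, 10.6% and 27.7%, against 16.3%, 16.8% and 20.5% of all genes, and the shares called higher 2.13%, 2.13% and 4.26%, against 16.1%, 15.8% and 22.0%. Their median differences were -0.22, -0.02 and -0.13. Smc4, a condensin subunit that compacts chromosomes, had a log2 difference of -1.47 in SAT (SE 0.188, adjusted p = 1.45e-05) and -1.09 in VAT (adjusted p = 0.000290). Ndc80, the outer kinetochore protein that binds microtubules, differed by -1.08 in SAT (adjusted p = 0.000533), and Smc2, the partner of Smc4, by -0.58 in VAT (adjusted p = 0.00546), which went to -0.21 (adjusted p = 0.216) under the housekeeping shift. Wee1, the kinase that inhibits Cdk1, was higher in subcutaneous AP by 0.56 (adjusted p = 0.0345), and Pttg1, securin, was higher in visceral AP by 0.29 (adjusted p = 0.0300). The Wee1 call was lost without any single array of AP from SAT or without AT from SAT replicate 2, and the Pttg1 call without replicate 1 or 3 of either visceral group. Under the housekeeping shift 11 of the 47 were lower and 1 higher in SAT, and 1 was lower and 16 higher in VAT. Of all 22180 genes, that shift called 2670 lower and 3731 higher in SAT, and 1736 lower and 11917 higher in VAT. Between depots, Anln, the contractile ring scaffold anillin, was the 1 called gene of the 47. That was 2.13% called higher in AP and 2.13% in AT, against 3.03% and 2.80% of all genes. The values of Anln were 4.71, 4.59 and 4.82 in AP from SAT and 5.56, 5.96 and 5.87 in AP from VAT. This was a rise of 1.09 (adjusted p = 5.51e-05). In AT it was also higher in VAT, by 0.65 (adjusted p = 0.00701), a call lost under the housekeeping shift (0.51, adjusted p = 0.121).

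Of 38 further replication genes, 9 were lower (23.7%) and 4 higher (10.5%) in AP in SAT, against 16.3% and 16.1% of all genes. In VAT 8 were lower (21.1%) and 6 higher (15.8%), close to the 16.8% and 15.8% of all genes, and 0 were called between depots or in the interaction. The origin recognition subunit Orc4 differed by -0.81 in SAT (adjusted p = 0.000147) and -0.80 in VAT (adjusted p = 0.000199), the clamp loader subunit Rfc1 by -0.80 in SAT, and Orc2 by -0.73 in VAT, where the housekeeping shift took it to -0.36 (adjusted p = 0.0530). On the other side, the catalytic subunit of DNA polymerase delta, Pold1, was higher in AP by 0.43 in SAT (adjusted p = 0.0170) and 0.48 in VAT (adjusted p = 0.00901), and the primase subunit Prim1 by 0.55 in VAT (adjusted p = 0.00285). Rfc5, another clamp loader subunit, rose by 0.39 in subcutaneous AP (adjusted p = 0.0120). The subcutaneous Pold1 call was lost without AP replicate 2 or 3 or AT replicate 1 or 3, and the Rfc5 call without AP replicate 2. Under the housekeeping shift 5 of the 38 were lower and 4 higher in SAT, and 1 was lower and 19 higher in VAT. The same shift called 2670 of all 22180 genes lower and 3731 higher in SAT, and 1736 lower and 11917 higher in VAT.

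Regulators upstream of both phases included larger differences than that of any member. Of 8 G1 cyclins, kinases and Myc, 4 were higher and 1 lower in AP in SAT, and 2 higher and 2 lower in VAT, beside 16.1% and 16.3% of all genes in SAT and 15.8% and 16.8% in VAT. Myc, a growth transcription factor that is also an immediate-early gene, read 10.00, 9.91 and 10.21 in AP from SAT and 6.82, 6.67 and 6.63 in AT from SAT, a difference of 3.33 (SE 0.131, adjusted p = 4.15e-11) or 10.1-fold. In VAT its difference was 3.15 (adjusted p = 8.25e-11), 8.88-fold. Cdk4, the G1 kinase, was higher in AP by 0.90 in SAT (adjusted p = 3.11e-05) and 0.61 in VAT (adjusted p = 0.00117), while its partner Ccnd2 was lower, at -0.63 (adjusted p = 0.000289) and -1.15 (adjusted p = 8.19e-07). Cdk2 differed by -0.42 in VAT (adjusted p = 0.0419). In AT, Ccnd2 and Ccnd3 were higher in VAT than in SAT by 0.51 and 0.43 (adjusted p = 0.0127 and 0.0245). These depot calls were lost under the housekeeping shift and without AT from SAT replicate 1, that of Ccnd3 also without AT from SAT replicate 2 or AT from VAT replicate 1 or 3. The Cdk2 call was lost without AP from SAT replicate 3 or replicate 1 or 2 of either visceral group, and under the shift it was -0.05 (adjusted p = 0.755). The dissociation-response genes were higher on the same AP arrays as Myc, and their part in its difference was not tested.

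Of 17 pocket proteins, E2F factors and MuvB subunits, 7 were lower (41.2%) and 3 higher (17.6%) in AP in SAT, against 16.3% and 16.1% of all genes. In VAT 7 were lower (41.2%) and 0 higher, against 16.8% and 15.8%. The retinoblastoma gene Rb1, which restrains E2F, read 7.33, 7.11 and 7.22 in AP from SAT and 9.26, 8.99 and 9.08 in AT from SAT, a difference of -1.89 (SE 0.119, adjusted p = 7.90e-09). In VAT the difference was -1.79 (adjusted p = 1.45e-08). Lin9, a MuvB subunit, differed by -0.82 in SAT (adjusted p = 0.000200), and Rbl1, the p107 pocket protein, by -0.76 in VAT (adjusted p = 0.000691). The E2F repressor E2f7 was higher in subcutaneous AP than in tissue by 0.61 (adjusted p = 0.00151) and lower in visceral than in subcutaneous AP, at -0.66 (adjusted p = 0.00426). E2f4 was higher in subcutaneous AP than in tissue by 0.55 (adjusted p = 0.000629) and in AT was higher in VAT by 0.40 (adjusted p = 0.0433). Between the AP depots 3 of the 17 were lower in VAT (17.6%) and 1 was higher (5.88%), against 2.60% and 3.03% of all genes. Rbl1 differed by -0.53 (adjusted p = 0.0447) and the E2F partner Tfdp2 by 0.83 (adjusted p = 0.000442). The Rbl1 depot call was lost without any single array of AP from SAT, AP from VAT replicate 1 or 2 or AT from SAT replicate 2, and the E2f4 depot call without 10 of the 12 arrays. The depot calls of E2f7 (-0.54, adjusted p = 0.0933), Rbl1 (-0.40, adjusted p = 0.114) and E2f4 (0.26, adjusted p = 0.350) were lost under the housekeeping shift. Under the housekeeping shift 4 of the 17 were lower and 3 higher in AP in SAT, and 2 were lower and 7 higher in VAT. Beside them, 2670 of all 22180 genes were lower and 3731 higher in SAT, and 1736 lower and 11917 higher in VAT.

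**Figure D5:**
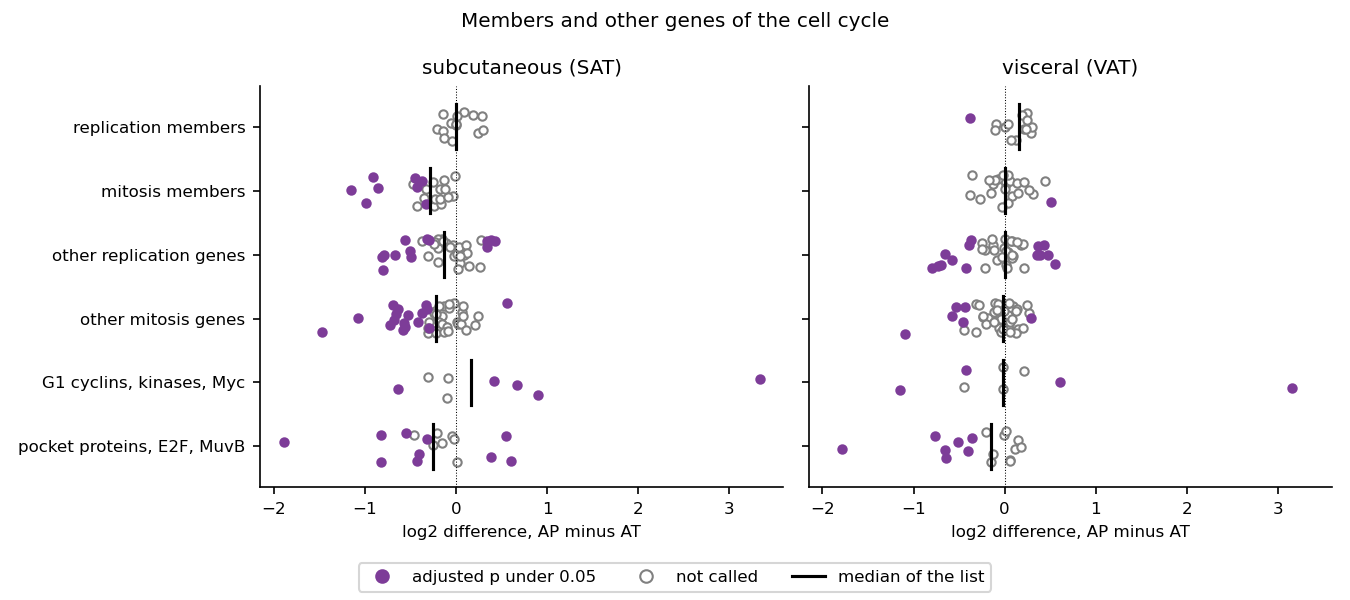
Log2 difference of AP minus AT (horizontal axis) for each gene of the 6 lists (members and the 4 further lists), in SAT and in VAT, with 1 point per gene, filled at an adjusted p under 0.05, and a bar at the median of the list. Myc is the far point on the right at 3.33 in SAT and 3.15 in VAT, and Rb1 the far point on the left at -1.89 and -1.79.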

How the data were processed

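RNA of 12 samples, 3 in each of 4 groups named by the sample titles, was measured on Affymetrix mouse arrays. The authors deposited 1 log2 intensity for each probe set and array, computed by RMA (robust multi-array averaging) with version 1.3.0.187 of Affymetrix Expression Console, per the submitters' processing notes. Base 2 was taken from the method and the range, 1.69 to 13.48. The values were used as deposited, with no further normalization or filter. Log2 differences of dim probe sets may be compressed, which was not measured here. Of 41345 probe sets, 23521 are annotated to 1 gene, 1814 to several and 16010 to none in the platform annotation. Probe sets of 1 gene were used, and the 1082 genes with several entered by the brightest, giving 22180 genes in the tests.

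The model was limma 3.58.1 under R 4.3.3 (lmFit and eBayes, 1 mean per group, 8 residual and 6.84 prior degrees of freedom). Tests were 2-sided, with Benjamini-Hochberg adjustment over all 22180 genes per contrast. The threshold for a call was 0.05. Intervals are at 95%. The number of arrays limits the precision. Full values are given, per phase and contrast, for the called members that rose most or fell most (up to 3 of each), and for Mki67, Top2a, Cdk1, Pcna and Mcm2. From each further list up to 2 called genes per direction and contrast are named. The members and lists were chosen with earlier results of these data known. Alternatives were the replicate block, array weights, eBayes with its trend and robust settings, the compared groups alone, quantile normalization, a housekeeping shift (11 of 13 genes tested), a filter at the 40th percentile, the mean over probe sets and leaving out each array. The code was tested on simulated data. Same-numbered arrays did not deviate together (r from -0.28 to 0.159, above 0.1 in 3 of 18 pairs), so replicate numbers were not taken as pairs. No 2 replicates were identical. Python 3.11.15 was used for promoter searches and figures. Scanner files were not used here.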

Additional observations from a re-analysis of the deposited data

Results flagged for a closer look

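The interaction of Plk1 was picked out because its depot difference in AP differed from that in AT by the test of the difference itself. VAT minus SAT was 0.84 in AP and -0.01 in AT on the log2 scale, and the interaction was 0.86 (SE 0.182, limma adjusted p = 0.0226). The direction was the same in every fit that left out 1 of the 12 arrays, and the call was lost in 5 of them.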

How the results depend on the processing

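No called member difference changed sign under any alternative that was run. The calls of single members were kept in 23 of 23 results with array weights, with the trend and robust options and with the mean over probe sets, in 22 of 23 after quantile normalization, in 15 of 23 under the housekeeping shift and in 19 of 19 after the filter at the 40th percentile. In the fits of these results without 1 array, 231 kept the call and 45 lost it. With the replicate number as a block, 21 of 23 calls were kept; Cdk1 in SAT went to an adjusted p of 0.0551 and Tpx2 between the AT depots to 0.0575, leaving 0 mitosis calls there in place of 1. Of 50 calls of named genes outside the set, 46 were kept with the block; Rbl1 between the AP depots went to 0.0707, E2f4 between the AT depots to 0.0604, Cdk2 in VAT to 0.0595 and Pttg1 over both depots to 0.0717. With the compared groups alone, 11 member calls were kept and 2 were lost, Cdk1 in SAT and Tpx2 between the AT depots. That setting added calls of lower for Plk1 and Prc1 and of higher for Mcm4 in SAT. It also added Top2a as lower in VAT and Kif11 as higher between the AP depots. Outside the set it lost 6 calls (Wee1 in SAT, Pttg1 and Cdk2 in VAT, and Ccnd2, Ccnd3 and E2f4 between the AT depots). The causes of these changes were not tested.

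The count of called replication members in SAT was 0 as reported, 1 with the compared groups alone, 1 after quantile normalization and 2 under the housekeeping shift. Mitosis calls in SAT went from 8 to 4 under that shift. In VAT, replication calls went from 1 to 2 with array weights, 2 after quantile normalization and 10 under the housekeeping shift. Mitosis calls in VAT went from 1 to 2 with the compared groups alone and 10 under that shift, and calls over all genes from 7239 to 13653. Over both depots the shift took replication calls from 3 to 8, and calls over all genes from 4890 higher and 4540 lower to 11309 higher and 2738 lower. In the AT depots, mitosis calls were 0 with the compared groups alone and 0 after quantile normalization, and calls over all genes went from 1009 to 601 with the compared groups alone. Mitosis calls of the interaction went from 1 to 3 with array weights, 3 under the shift and 3 after the filter. Under the shift the split of calls over all genes, higher and lower, was also 3731 and 2670 in SAT (3571 and 3615 as reported), 779 and 296 in the AP depots (673 and 577), 278 and 584 in the AT depots (621 and 388) and 516 and 71 in the interaction (219 and 257).

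Without each array in turn, replication, mitosis and all-gene calls were 0 to 1, 5 to 9 and 6110 to 7341 in SAT; 0 to 2, 1 to 3 and 6027 to 7432 in VAT; and 1 to 5, 5 to 7 and 8623 to 9644 over both depots. They were 0 to 0, 1 to 3 and 849 to 1374 between the AP depots, 0 to 0, 0 to 1 and 660 to 1026 between the AT depots, and 0 to 0, 0 to 5 and 264 to 626 for the interaction. The mean correlation without 1 or 2 arrays was chosen after seeing the data. Signals near the background level of 4.10 limit Bub1, Ttk and Birc5 most.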
